A study of Arabidopsis thaliana with 18 samples.

Results

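Shoots of *AO*pro(mut)-*AO* plants were compared with shoots of *AO*pro(wt)-*AO* plants after 3 days without nitrogen (N). Members were chosen by their labels, as the 3 arrays of each line at this stage, and make up 6 of the 18 arrays of the series. Both lines carry the *ao* null allele *fin4-2* (a T-DNA insertion, SALK_013920) and a transgene holding the *AO* gene, which is driven by its own promoter in *AO*pro(wt)-*AO* plants and by the same promoter with a mutated NLP-binding site in *AO*pro(mut)-*AO* plants, below *AO*pro(wt) and *AO*pro(mut) plants. Each genotype was represented by 1 transgenic line, line #1, so that an effect of the promoter and any other property of that line cannot be told apart. After germination on a sponge over 3 days, per the sample records, plants had grown hydroponically in 1/10MS solution under continuous light for 17 days and then in an N-free solution with 0.5 mM K2SO4 for 3 days. An array held RNA from the whole shoots of 2 or 3 seedlings. The other 12 arrays, 3 for each line before N starvation and after 24 h of resupply with 10 mM KNO3, serve below to show where the stage without N differed. They also entered the probe filter and, in the model of all 18 arrays, the estimate of spread behind the p-values. Plants kept on N over the same days are not analysed here. In whole shoots, fewer cells of a type and less RNA per cell cannot be told apart.

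*AO* (AT5G14760) encodes L-aspartate oxidase, the first enzyme of *de novo* NAD synthesis, which makes iminoaspartate from aspartate in the plastid. Quinolinate synthase (QS) and later enzymes then build the pyridine ring of NAD. NIN-like proteins (NLPs) are transcription factors that are activated by nitrate and bind nitrate-responsive elements in the promoters of nitrate-inducible genes. When N is withdrawn, Arabidopsis shoots normally turn down genes of nitrate reduction and of the nitrate response and draw on protein and chlorophyll of older leaves. The lines were compared to ask how transcripts depend on the NLP-binding site of the *AO* promoter. That site, on chromosome 5, is shown here in capitals within primers that the study designed for the promoter. The capitals are the intended difference between the lines. The primer that holds the wild-type site carries the name of another mutated probe of the study. Its bases in small letters may therefore differ from the wild-type promoter, which was not checked.
wild-type promoter: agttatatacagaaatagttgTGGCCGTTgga
mutated promoter: tagttgTTGCAGTGggagatttgc
Counted from 1 at the 5′ end of the site, the substitutions are G2T, C5A and T8G.

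The arrays were one-colour Agilent Arabidopsis (V4) arrays. Signals below are normalized log2 signals, set to 0 at each array's 75th percentile, and differences are log2 fold changes of *AO*pro(mut) minus *AO*pro(wt) plants. The test covered 29415 of 43603 distinct probes, for 21059 genes, which passed a filter on background in all arrays of 1 group or more. On an array 72.6% to 76.1% of the spots stood well above background, none was saturated, and the arrays of a group correlated at 0.993 or more. A gene was called when any of its probes had an adjusted p of 0.05 or less and an absolute log2 fold change of 1 or more (limma, Benjamini-Hochberg over all probes tested). A gene named below is given by its brightest tested probe. The number of arrays limits the precision, since each line has 3. Of transcripts that mark shoots, *RBCS1A*, for a Rubisco small subunit, *RCA*, for Rubisco activase, and *LHCB1.1*, for a light-harvesting protein, were well above background on all 6 arrays. *RBCS1A* and *RCA* differed by 0.14 and 0.25 between the lines (adjusted p = 0.221 and 0.0568, limma), and *LHCB1.1* by 0.60 (adjusted p = 1.62e-05, limma). The summed linear signals (relative to the 75th percentile) of 6 markers of root endodermis and hairs lay between 0.152 and 0.165 on *AO*pro(wt) arrays and between 0.182 and 0.211 on *AO*pro(mut) arrays.

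*AO* was lower in *AO*pro(mut) plants on every array. Its normalized log2 signals were 1.05, 1.01 and 1.14 in *AO*pro(wt) plants and -0.87, -1.45 and -1.62 in *AO*pro(mut) plants, with means of 1.07 ± 0.07 and -1.31 ± 0.40 (SD, *n* = 3). The lines did not overlap, and the difference was -2.38 (standard error 0.18, adjusted p = 1.23e-07, limma), a 5.20-fold lower signal. In a fit of only these 6 arrays the difference was the same and the adjusted p was 0.000336 (limma). The array has a second, much dimmer *AO* probe, which differed by -0.73 (adjusted p = 0.0282, limma) and so did not reach the fold threshold. The *ao* null allele is shared by both lines, so the signal of *AO* in either line is that of the transgene and of any transcript left from the disrupted gene. Replicates of the same number lay on the same slide in both lines, and the difference of the brighter probe was -1.91, -2.46 and -2.77 within the 3 slides.

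**Figure D1:**
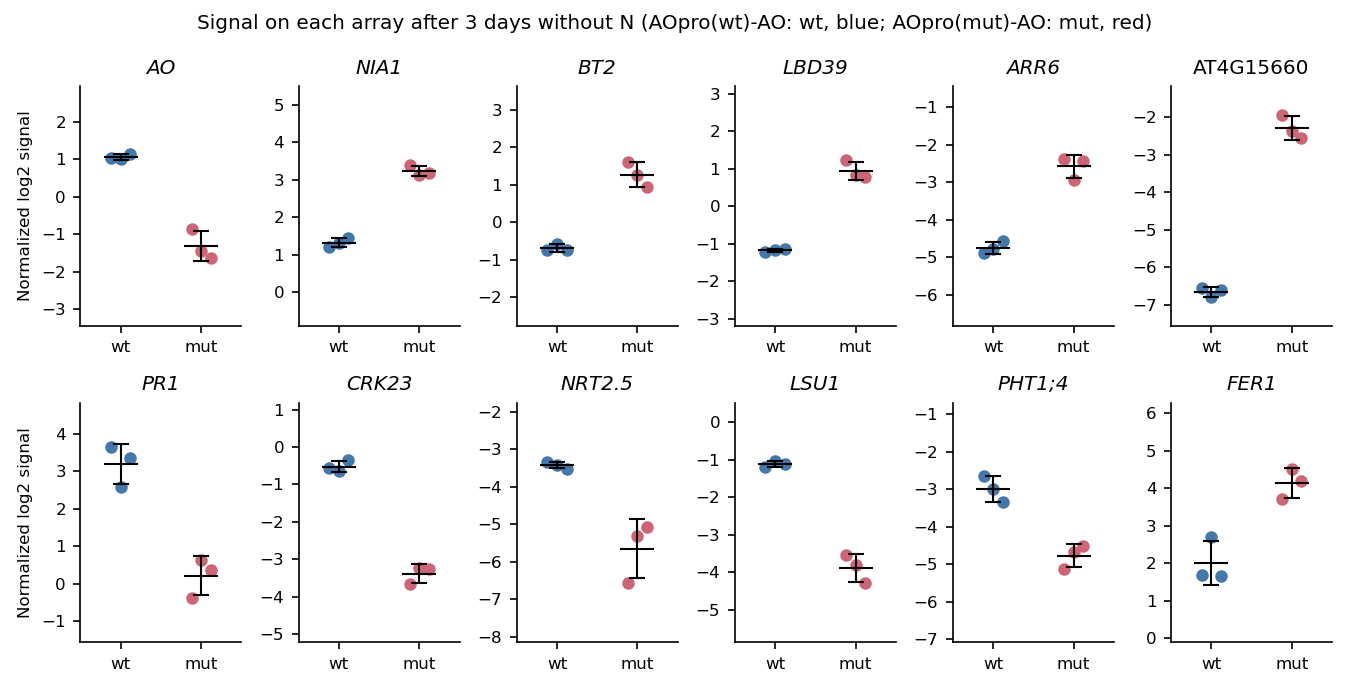
Normalized log2 signal (0 is the 75th percentile of an array) of 12 genes on each of the 6 arrays after 3 days without N, with mean and SD as black bars, on axes of equal length. *AO* lies near 1 in the 3 blue points and at -0.87 or below in the 3 red points, and in none of the 12 panels do the lines overlap.

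A stretch of chromosome 5, from AT5G49520 to AT5G61610 in the gene order of the annotation, is described apart further below, since almost all of its genes were higher in *AO*pro(mut) plants. Outside that range 20025 genes were tested, and after 3 days without N 449 (2.24%) of them were higher in *AO*pro(mut) plants and 705 (3.52%) were lower. Transcripts of class III (CC-type) glutaredoxins, of nitrate-responsive regulators and of cytokinin signalling were among the higher genes. Those of defence associated with salicylic acid, of cysteine-rich receptor-like kinases, and of the responses to phosphate and sulfur shortage were among the lower genes. By the brightest probe alone, 413 genes (2.06%) were higher and 681 (3.4%) lower, and the 3 arrays of one line did not overlap those of the other for 405 and 676 of them. This absence of overlap was common, since it held for 12309 (61.7%) of the 19965 genes measured on all 6 arrays. The largest changes named below were chosen with it as a condition, so it adds no support for them. With no minimum fold change, 4610 genes (23%) were higher and 5398 (27%) lower at an adjusted p of 0.05, so small differences were widespread and the counts rest on the fold threshold. Counts of list members below are by the brightest probe and are to be read beside these shares, so 1 or 2 calls in a list say little about that list. With a normexp background correction and quantile normalization the calls were 155 higher and 393 lower, which lowers the share of higher genes among the calls from 38.9% to 28.3%. With the normexp correction alone, 36 of the 131 called genes among those named by rule lost their call. The median log2 fold change was -0.02 outside the range and -0.0008 over all genes tested. On chromosomes 1 to 4 and the rest of chromosome 5 between 2.1% and 2.4% of the genes were higher and between 3.1% and 3.7% lower.

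The genes called on these 6 arrays are described by slide without a test. The median differences of the 413 higher genes were 1.47, 1.25 and 1.29 within the 3 slides and those of the 681 lower genes -1.78, -1.19 and -1.31, so the first slide held the largest median difference in both directions. Genes above background on all 6 arrays made up 285 of the higher and 557 of the lower calls, with median changes of 1.24 and -1.36, and 20 of the former and 81 of the latter changed more than 4-fold. In 78 of the higher and 54 of the lower genes the probe was not well above background on any array of the dimmer line.

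**Figure D2:**
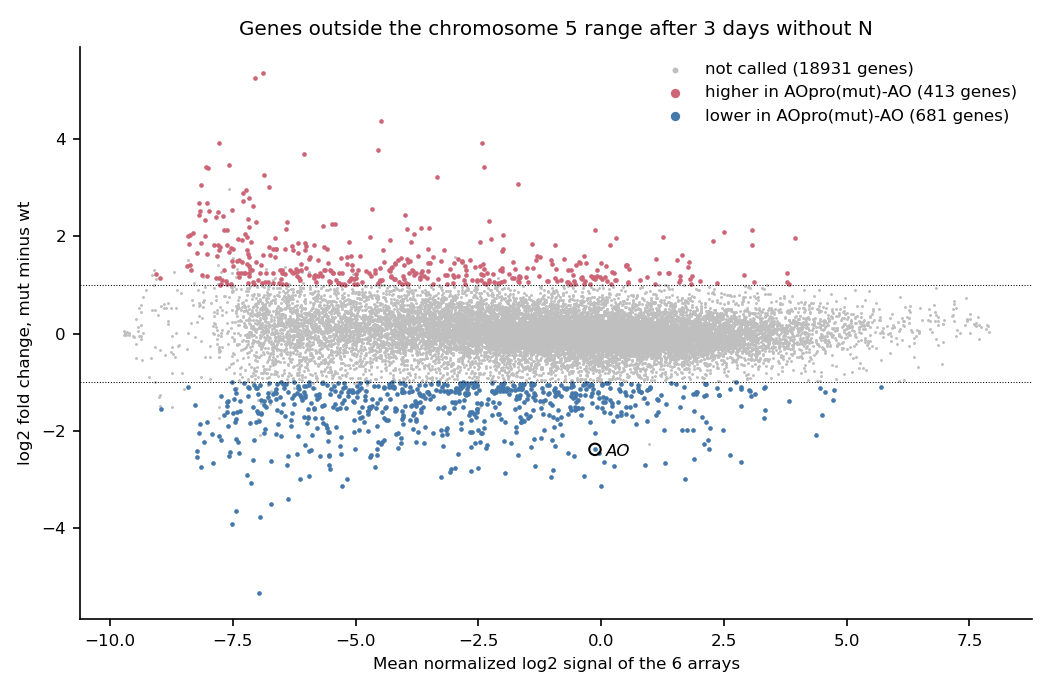
Log2 fold change of *AO*pro(mut) minus *AO*pro(wt) plants after 3 days without N (vertical axis) against the mean normalized log2 signal of the 6 arrays (horizontal axis), 1 point for each of 20025 genes outside the range, by the brightest probe. Red points are the 413 higher and blue points the 681 lower genes, dotted lines mark changes of 1 and -1, and the largest changes in both directions lie among dim genes.

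Glutaredoxins had some of the largest increases. CC-type glutaredoxins are small thiol oxidoreductases found in land plants, and several of them are induced by nitrate or cytokinin. Of 19 genes of this family tested outside the range, 11 were higher and 3 lower, and the median log2 fold change was 1.30, against -0.02 for all genes outside the range. The signals of AT4G15660 were -6.56, -6.80 and -6.62 in *AO*pro(wt) plants and -1.93, -2.37 and -2.56 in *AO*pro(mut) plants. It thus stood 20.7-fold higher (4.37 on the log2 scale, standard error 0.13, adjusted p = 1.28e-10, limma). With the normexp correction the difference was 2.51, and *CSLA01*, described further below, exceeded it (3.33).

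AT4G15690 lay at -6.58, -6.10 and -6.59 against -2.22, -2.89 and -2.83, a difference of 3.78. AT4G15700 lay at -5.00, -4.92 and -4.93 against -1.40, -1.99 and -1.79, a difference of 3.22. AT4G15680 and AT4G15670 were not well above background on any *AO*pro(wt) array, at -9.95 to -9.38, and lay between -4.79 and -3.86 in *AO*pro(mut) plants. For this pair only a bound can be given, at least 9.36-fold and at least 7.99-fold higher. Bounds compare the mean of the bright line with the lowest signal well above background on each array of the dim line. Where the probe's own signal on an array of the dim line lay above that level, its own signal was used. These 5 genes are neighbours on chromosome 4 and close in sequence, so a probe may detect the transcript of more than 1 of them, which was not tested. With the normexp correction AT4G15680 differed by 1.59 and AT4G15670 by 1.45. The higher members on chromosome 3 were AT3G21460 (3.42), AT3G62950 (2.56) and AT3G62930 (2.44), and AT5G18600 (1.36), AT1G03020 (1.30) and AT2G47870 (1.04) completed the 11. The 3 lower members were *GRXS13* (AT1G03850, -1.55), AT5G11930 (-1.46) and AT4G33040 (-1.43), for which the arrays of the lines did not overlap either.

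Nitrate-responsive regulators were higher in part. Of 22 tested, 4 were called higher and none lower, with a median of 0.20, against 2.06% and 3.4% of all genes outside the range. By adjusted p alone 10 were higher and 5 lower, down to -0.63 for *NLP5*, against 23% and 27%. All 3 of the related LOB-domain repressors of N metabolism and anthocyanin synthesis were among the 4 called. *LBD39* (AT4G37540) lay at -1.22, -1.17 and -1.15 in *AO*pro(wt) plants and at 1.22, 0.83 and 0.78 in *AO*pro(mut) plants (2.12, adjusted p = 3.11e-09, limma). *LBD38* (AT3G49940) differed by 1.30 and *LBD37* (AT5G67420) by 1.06. *BT2* (AT3G48360), for a BTB and TAZ domain protein that lowers nitrate uptake, lay at -0.73, -0.57 and -0.74 against 1.62, 1.27 and 0.94 (1.96, adjusted p = 1.33e-05, limma). *LBD37* fell below the fold threshold without replicate 1 of *AO*pro(mut) (0.99) or replicate 2 of *AO*pro(wt) plants (0.94). In *LBD39* and *BT2* the *AO*pro(wt) arrays were closely grouped below every *AO*pro(mut) array.

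Among 19 genes of nitrate reduction, ammonium assimilation and amide synthesis outside the range, 1 was higher and 1 lower. *NIA1* (AT1G77760), for nitrate reductase, lay at 1.22, 1.32 and 1.45 in *AO*pro(wt) plants and at 3.39, 3.12 and 3.20 in *AO*pro(mut) plants. This was a 3.76-fold higher signal (1.91, adjusted p = 9.33e-09, limma). The second nitrate reductase gene *NIA2* (AT1G37130) differed by 0.82, nitrite reductase *NIR1* (AT2G15620) by 0.76 and asparagine synthetase *ASN2* (AT5G65010) by 0.96, below the fold threshold. *GLN1;4* (AT5G16570), for a cytosolic glutamine synthetase, was lower, from 0.18, 0.39 and 0.13 to -1.46, -1.20 and -1.19 (-1.52). Of 20 genes for transport of nitrate, ammonium and urea, none was higher and 2 were lower. *NRT2.5* (AT1G12940), a high-affinity nitrate transporter gene that is induced by long N starvation, lay at -3.35, -3.42 and -3.51 against -6.55, -5.30 and -5.08 (-2.22, adjusted p = 0.0137, limma). The *AO*pro(mut) arrays were spread over more than 1 log2 unit here, and without replicate 1 of that line the difference was -1.77 and no longer called (adjusted p = 0.068, limma). The urea transporter gene *DUR3* (AT5G45380) differed by -1.33.

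Of 18 genes of cytokinin synthesis, breakdown and response, 5 were higher and 1 lower. The type-A response regulator *ARR6* (AT5G62920), which is induced by cytokinin and dampens its signalling, lay at -4.89, -4.78 and -4.58 against -2.37, -2.93 and -2.43 (2.17, adjusted p = 2.26e-08, limma). Its relatives *ARR7* (AT1G19050) and *ARR15* (AT1G74890) differed by 1.24 and 1.22. *IPT3* (AT3G63110), for an isopentenyltransferase that starts cytokinin synthesis and is induced by nitrate, lay at -2.70, -2.67 and -2.77 against -1.20, -1.48 and -1.55 (1.30). *CYP735A2* (AT1G67110), which makes trans-zeatin type cytokinins, was not well above background on any *AO*pro(wt) array and at least 1.44-fold higher in *AO*pro(mut) plants. The gene that was lower, *IPT7* (AT3G23630), is another isopentenyltransferase gene (-1.05).

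Transcripts for the light reactions were higher by small amounts. Of 19 light-harvesting protein genes outside the range, 2 were called higher, and 16 had an adjusted p of 0.05 or less in the higher direction, with a median of 0.52. The shares over all genes outside the range were 2.06% and 23%. *LHCB2.3* (AT3G27690) lay at 2.62, 3.11 and 3.19 against 5.22, 4.65 and 4.95 (1.97), and *LHCB2.1* (AT2G05100) at -0.88, -0.63 and -0.65 against 1.32, 0.84 and 1.1 (1.81). The *LHCB2* genes are near-identical in sequence, so their probes may share transcripts. None of 22 photosystem subunit genes reached the fold threshold, while 18 had an adjusted p of 0.05 or less in the higher direction (median 0.34). None of 14 genes for Rubisco small subunits and the Calvin cycle was called, with a median of 0.11.

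Salicylic acid accumulates in infected leaves, where it turns on pathogenesis-related (*PR*) genes through NPR1, and WRKY transcription factors act on both sides of this pathway. Transcripts of this defence branch were lower. Of 16 genes of salicylic acid synthesis and signalling, 8 were called lower and none higher, and all 16 had an adjusted p of 0.05 or less in the lower direction, with a median of -1.0. Over all genes outside the range, 3.4% were called lower and 27% passed by adjusted p in that direction. Among the 8 were the isochorismate synthase gene *ICS1* (AT1G74710, -1.03), which makes the precursor of salicylic acid, its exporter gene *EDS5* (AT4G39030, -1.61) and *PBS3* (AT5G13320, -1.12), whose enzyme joins glutamate to isochorismate. The signalling genes *PAD4* (AT3G52430, -1.26) and *SAG101* (AT5G14930, -1.11) and the transcription factor gene *SARD1* (AT1G73805, -1.04) were lower as well. *DLO1* (AT4G10500), for an enzyme that hydroxylates salicylic acid, lay at 3.46, 3.01 and 3.33 in *AO*pro(wt) plants and at 0.51, 1.66 and 1.06 in *AO*pro(mut) plants (-2.19, adjusted p = 1.49e-05, limma). *NIMIN2* (AT3G25882), whose protein binds NPR1, differed by -1.30.

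All 10 tested genes for PR proteins and N-hydroxypipecolic acid outside the range were lower, with a median of -1.92. *PR1* (AT2G14610) lay at 3.63, 2.59 and 3.35 in *AO*pro(wt) plants and at -0.37, 0.64 and 0.36 in *AO*pro(mut) plants. It was 7.91-fold lower (-2.98, standard error 0.38, adjusted p = 1.85e-05, limma). *PRB1* (AT2G14580), a close relative of *PR1*, differed by -2.99, the thaumatin-like *PR5* (AT1G75040) by -2.09 and the glucanase gene *PR2* (AT3G57260) by -1.67. *ALD1* (AT2G13810), *FMO1* (AT1G19250) and *UGT76B1* (AT3G11340), for enzymes that make and modify N-hydroxypipecolic acid, a signal of systemic resistance, differed by -2.04, -1.80 and -1.73. The defensin gene *PDF1.2* (AT5G44420), which is induced by jasmonate and ethylene, lay at 4.13, 2.11 and 3.26 against 0.81, 0.84 and 0.15 (-2.57, adjusted p = 0.0386, limma). Its *AO*pro(wt) arrays were far apart, and its call was lost on leaving out any of 5 of the 6 arrays, with differences from -2.69 to -2.09.

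Of 19 WRKY genes tied to immunity 9 were lower and none higher (median -0.97). *WRKY38* (AT5G22570) lay at 1.20, 0.68 and 0.83 against -1.35, -0.90 and -1.18 (-2.05), and *WRKY62* (AT5G01900), which acts with it, differed by -1.96. *WRKY51* (AT5G64810) differed by -1.69. *WRKY59* (AT2G21900) was not well above background on any *AO*pro(mut) array and at least 3.15-fold lower there. Cysteine-rich receptor-like kinases (CRKs) are plasma membrane receptors, many of which are induced by salicylic acid and pathogens. Of 25 tested, 11 were lower and none higher (median -0.80). *CRK23* (AT4G23310) lay at -0.57, -0.64 and -0.36 against -3.67, -3.22 and -3.24 (-2.86, adjusted p = 2.8e-09, limma), and *CRK38* (AT4G04510), *CRK4* (AT3G45860) and *CRK7* (AT4G23150) differed by -2.50, -1.98 and -1.65. The lines were apart on all arrays for each of these genes, which the naming rule required of *CRK23*.

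**Figure D3:**
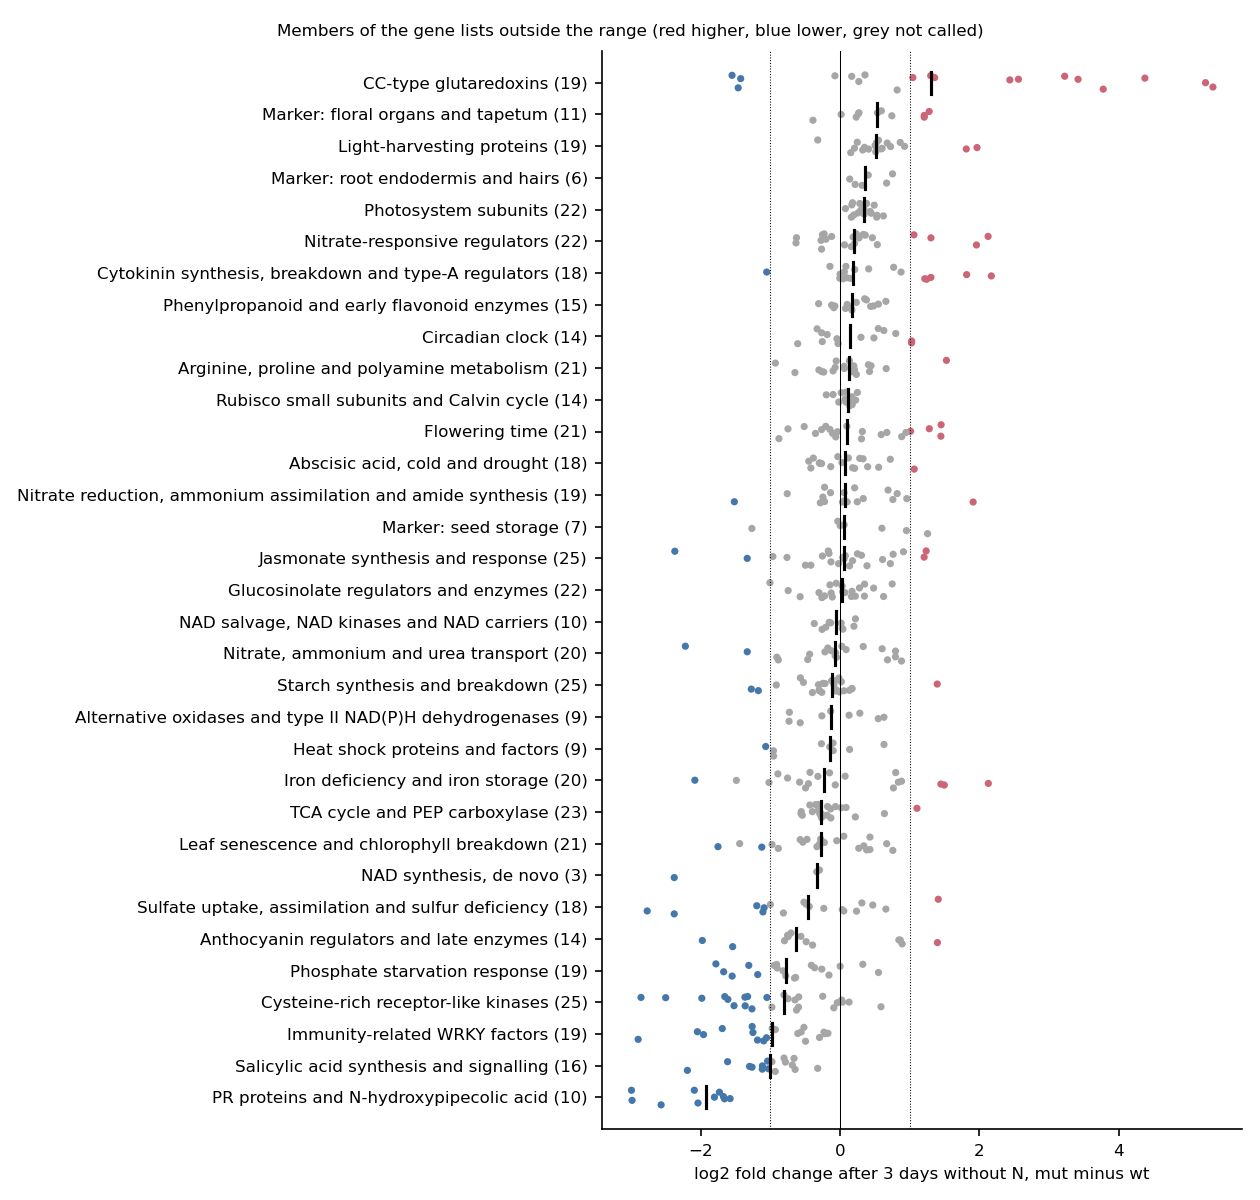
Log2 fold change (horizontal axis, *AO*pro(mut) minus *AO*pro(wt) plants after 3 days without N) of the tested members of 33 gene lists outside the range, with the number of members in parentheses and 1 point for a gene by its brightest probe. Black bars are medians, from -1.92 for PR proteins to 1.30 for CC-type glutaredoxins, red and blue points are genes called higher and lower, and vertical position within a row has no meaning.

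Other hormone and stress lists had few calls. Of 25 genes of jasmonate synthesis and response, 2 were higher and 2 lower (median 0.06). The vegetative storage protein genes *VSP1* (AT5G24780) and *VSP2* (AT5G24770), which are close in sequence, differed by 1.24 and 1.21. *TAT3* (AT2G24850), for a tyrosine aminotransferase, lay at 3.63, 3.09 and 3.42 against 0.66, 1.49 and 0.88 (-2.37), and the sulfotransferase gene *ST2A* (AT5G07010) differed by -1.33. Of 21 genes of leaf senescence and chlorophyll breakdown, none was higher, and the NAC factor gene *JUB1* (AT2G43000, -1.75) and *SAG13* (AT2G29350, -1.12) were lower. Of 18 genes of abscisic acid, cold and drought only *COR15B* (AT2G42530, 1.06) was called, and of 9 heat shock genes only *HSP70* (AT3G12580, -1.07). These and *SAG13* fell below the fold threshold with 1 array left out: *COR15B* without replicate 1 of *AO*pro(wt) (0.95) or replicate 3 of *AO*pro(mut) plants (0.84), *HSP70* without replicate 2 of *AO*pro(wt) plants (-0.99) and *SAG13* without replicate 1 of *AO*pro(mut) plants (-0.88).

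Genes induced by phosphate and sulfur shortage were lower in part. Of 19 phosphate starvation genes, 5 were called lower and none higher, 16 had an adjusted p of 0.05 or less in the lower direction, and the median was -0.78. Over all genes outside the range, 3.4% were called lower and 27% passed by adjusted p in that direction. *PHT1;4* (AT2G38940), for a phosphate transporter, lay at -2.65, -2.99 and -3.34 against -5.12, -4.68 and -4.51 (-1.78), and its second tested probe differed by -0.95. *MGD3* (AT2G11810), which makes galactolipid in place of phospholipid, lay at -1.79, -1.77 and -1.99 against -3.77, -3.54 and -3.26 (-1.67). The phosphatase genes *PEPC1* (AT1G17710, -1.55) and *PAP17* (AT3G17790, -1.18) and the SPX domain protein gene *SPX3* (AT2G45130, -1.31) were also lower. No *AO*pro(mut) array reached an *AO*pro(wt) array for any of these 5 genes. *PEPC1* was no longer called without replicate 1 of *AO*pro(wt) (-1.38, adjusted p = 0.0528, limma) or replicate 1 of *AO*pro(mut) plants (-1.37, adjusted p = 0.0549, limma), or with the normexp correction (-0.50). Of 18 genes of sulfur uptake, assimilation and deficiency, 5 were lower and 1 higher (median -0.47). *LSU1* (AT3G49580), a marker of sulfur deficiency, lay at -1.21, -1.05 and -1.12 against -3.56, -3.81 and -4.30 (-2.77, adjusted p = 1.25e-07, limma). Its relative *LSU3* (AT3G49570) differed by -2.38 and *SDI1* (AT5G48850), which represses glucosinolate synthesis, by -1.19, while the glucosidase gene *BGLU28* (AT2G44460) was higher (1.41).

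Of 20 genes of iron deficiency and storage 3 were higher and 1 lower. *FER1* (AT5G01600), for the iron storage protein ferritin, lay at 1.67, 2.69 and 1.66 against 3.71, 4.51 and 4.19 (2.13), so replicate 2 of *AO*pro(wt) plants stood 1 unit above the other two. The ferric reductase gene *FRO2* (AT1G01580) differed by 1.50 and the nicotianamine synthase gene *NAS1* (AT5G04950) by 1.45. AT2G30766 was lower (-2.08), with arrays of the lines that overlapped, at 1.01, -0.80 and 0.53 against -0.76, -2.13 and -2.63. It was no longer called without replicate 1 of *AO*pro(wt) (-1.70) or replicate 3 of *AO*pro(mut) plants (-1.69).

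In the pathway of *AO* itself, 3 *de novo* NAD synthesis genes were tested outside the range, *AO* among them. All 3 had an adjusted p of 0.05 or less in the lower direction, as did 27% of all genes outside the range. *AO* alone reached the fold threshold, and the median of the 3 was -0.33, with -0.29 as the smallest change. None of 10 genes of NAD salvage, NAD kinases and NAD carriers was called (median -0.06, range -0.37 to 0.22). Of 23 genes of the TCA cycle and phosphoenolpyruvate carboxylase, 15 had an adjusted p of 0.05 or less in the lower direction, against the same 27%. Their median was -0.27, and only *PPC3* (AT3G14940), for a phosphoenolpyruvate carboxylase, was called, as higher (1.1). The proline synthesis gene *P5CS1* (AT2G39800) was the only call among 21 genes of arginine, proline and polyamine metabolism, from -1.73, -1.38 and -1.44 to 0.06, 0.01 and -0.04 (1.53). Of 25 starch genes, the beta-amylase gene *BAM5* (AT4G15210, 1.39) was higher, and the plastid glucose phosphate carrier gene *GPT2* (AT1G61800, -1.27) and the amylase gene *AMY1* (AT4G25000, -1.17) were lower. Without replicate 1 of *AO*pro(mut) plants both of the latter fell below the fold threshold, at -0.93 and -0.98. No gene was called among 9 alternative oxidases and type II dehydrogenases, 22 glucosinolate genes and 15 phenylpropanoid genes. Of 14 genes of anthocyanin regulation and late synthesis, the activators *MYB113* (AT1G66370, -1.98) and *MYB90* (AT1G66390, -1.54) were lower and the repressor *MYBL2* (AT1G71030, 1.40) was higher. The adjusted p of *MYB90* was 0.0437 (limma), and its call was lost on leaving out any of 5 of the 6 arrays, with differences from -1.66 to -1.24.

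Of 21 flowering time genes, 4 were higher and none lower. *TFL1* (AT5G03840), which keeps the shoot tip indeterminate, lay at -4.37, -4.19 and -4.17 against -2.83, -2.59 and -2.96 (1.45). The *FLC* relatives *MAF5* (AT5G65080) and *MAF4* (AT5G65070) differed by 1.45 and 1.28 and *SPL4* (AT1G53160) by 1.01. Of 11 tested of 19 markers of floral organs and tapetum, 3 were higher and none lower, namely the organ identity genes *AP3* (AT3G54340, 1.28), *PI* (AT5G20240, 1.21) and *SEP3* (AT1G24260, 1.21). The median of the 11 was 0.54 and the lowest change -0.39 (AT5G07230). Their median line difference was 0.34 before N starvation, with 3 higher and 1 lower, and 1.83 after resupply, with 8 higher. The summed linear signals of the 11 lay between 0.581 and 0.700 on *AO*pro(wt) arrays and between 1.02 and 1.14 on *AO*pro(mut) arrays, and *AMS* and *CYP704B1* of the tapetum were not well above background on any array of either line. The part of floral tissue in the results was not tested. Of 14 clock genes, *PRR9* (AT2G46790) and *CCA1* (AT2G46830) were higher by 1.03 each, close to the threshold. *PRR9* was 0.55 with the normexp correction (adjusted p = 0.485, limma), and it lost its call without replicate 1 (0.97) or 3 (0.99) of *AO*pro(wt) or replicate 1 of *AO*pro(mut) plants (0.96). *CCA1* lost its call without replicate 1 of either line (0.94 and 0.88), *SPL4* without replicate 1 of *AO*pro(wt) (0.93) or replicate 1 or 2 of *AO*pro(mut) plants (0.996 and 0.997), and *AP3* without replicate 1 of *AO*pro(wt) plants (0.94).

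Outside the lists, the largest increase of a gene above background on all 6 arrays was that of *CSLA01* (AT4G16590), for a cellulose synthase-like protein of the glucomannan synthase family. It lay at -4.20, -4.43 and -4.50 in *AO*pro(wt) plants and at -0.41, 0.05 and -1.0 in *AO*pro(mut) plants, a 15.1-fold higher signal (3.92, adjusted p = 0.000111, limma). *THI2.2* (AT5G36910), for a thionin, lay at -3.17, -3.14 and -3.36 against -0.13, -0.45 and 0.14 (3.07). Both were named by a rule that required the lines not to overlap. AT2G42170 (2.30), the phosphodiesterase gene *GDPD6* (AT5G08030, 2.24), AT1G67105 (2.24), AT1G62690 (2.20), AT4G36850 (2.17) and AT5G47330 (2.14) followed. Of genes not well above background in any *AO*pro(wt) shoot, AT3G13403 was at least 9.31-fold and the carboxypeptidase-like gene *scpl17* (AT3G12203) at least 4.50-fold higher. AT2G30830 was at least 3.40-fold and AT3G21660 at least 3.19-fold higher.

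The largest decrease above background was that of AT3G28510, from 1.80, 1.38 and 1.52 to -1.97, -1.42 and -1.34, an 8.80-fold lower signal (-3.14, adjusted p = 1.09e-06, limma). The cation exchanger gene *CHX2* (AT1G79400, -2.95), AT5G24200 (-2.94), AT4G28480 (-2.93), *EDA36* (AT4G13890, also named *SHM5*, -2.84), AT4G14390 (-2.83) and the acetyltransferase gene *NATA1* (AT2G39030, -2.80) came next. AT4G28480 was uneven in *AO*pro(mut) plants, at -1.38, -2.99 and -1.09. AT3G21080 (-2.78), AT5G38910 (-2.78), AT1G51860 (-2.76), AT4G10860 (-2.74) and the methionine sulfoxide reductase gene *MSRB8* (AT4G21840, -2.72) completed this group with *PR1*, *CRK23* and *LSU1*. Of genes not well above background in any *AO*pro(mut) shoot, the nudix hydrolase gene *NUDT24* (AT5G19470) was at least 8.76-fold lower, from -4.06, -4.00 and -4.82. AT1G61480 was at least 6.70-fold, AT1G43810 at least 5.51-fold, AT1G13550 at least 5.16-fold, AT3G19690 at least 3.97-fold and AT2G21840 at least 3.79-fold lower. Without replicate 1 of *AO*pro(mut) plants AT3G19690 was no longer called (adjusted p = 0.0539, limma). Bounds hold for the processed signal: with the normexp correction the calls of AT4G15680, AT4G15670 and AT3G13403 held, and those of all other genes given here by a bound were lost.

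The other stages show which of these differences were already present. Before N starvation 383 genes outside the range (1.91%) were higher in *AO*pro(mut) plants and 493 (2.46%) were lower, and after resupply 553 (2.76%) and 527 (2.63%) were. The 3 stages used separate arrays. Of the 449 genes higher after 3 days without N, 187 were also higher before N starvation (41.6% of the former list and 48.8% of the latter) and 223 after resupply (49.7% and 40.3%), and 138 were higher at all 3 stages. Of the 705 lower genes, 357 were also lower before N starvation (50.6% and 72.4%) and 363 after resupply (51.5% and 68.9%), and 256 were lower at all stages. Called at neither other stage in the same direction were 177 (39.4%) of the higher and 241 (34.2%) of the lower genes. A missing call at another stage does not by itself show a difference between stages. By the test described next, 60 of these 177 and 24 of these 241 genes differed in the same direction from the stage before N starvation. Against resupply 42 and 28 did. *PR1* differed by -2.38 before N starvation and by -2.67 after resupply, *CRK23* by -2.42 and -2.69, *CSLA01* by 3.90 and 3.59 and *THI2.2* by 3.46 and 2.13.

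The difference between stages was tested in the same model, as the line difference after 3 days without N minus that at another stage. It was 1 or more for 119 genes (0.594%) and -1 or less for 91 genes (0.454%) against the stage before N starvation, at an adjusted p of 0.05 over all probes. Against resupply the counts were 86 (0.429%) and 116 (0.579%). Both tests share the arrays of the stage without N. Of the 449 higher genes, 74 passed the test against the stage before N starvation and 48 that against resupply, and of the 705 lower genes 40 and 48 did. These counts moved with the arrays used: without replicate 1 of *AO*pro(mut) plants 75 genes were higher and 43 lower than before N starvation and 67 lower than after resupply, and without replicate 2 of *AO*pro(wt) plants 49 were lower than before N starvation.

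In the median, the glutaredoxins differed little between the lines with N. Of the 19, 1 was called lower before N starvation, and 1 was called higher and 1 lower after resupply. Their line differences had a median of 0.18 before N starvation and 0.13 after resupply, against 1.30 without N, and 10 of the 19 passed the test as higher than before N starvation and none as lower. Against resupply 11 were higher and 3 lower, namely AT3G62960 (-1.66), AT4G33040 (-1.41) and AT5G11930 (-1.08). The *AO*pro(wt) signal of AT4G15660 was -2.40 ± 0.08 before N starvation, -6.66 ± 0.12 without N and -1.80 ± 0.08 after resupply (SD, *n* = 3). Over the same stages the *AO*pro(mut) signal was -2.09 ± 0.19, -2.29 ± 0.32 and -1.24 ± 0.09 (SD, *n* = 3). The line differences with N were 0.31 and 0.56, and the 1 low level among the 6 groups was that of *AO*pro(wt) plants without N.

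Other genes of the nitrate response had their lowest mean in *AO*pro(wt) plants without N as well, but differed in how far the lines were apart with N. *ARR6* was at -2.37 ± 0.12, -4.75 ± 0.16 and -1.61 ± 0.15 (SD, *n* = 3) in *AO*pro(wt) plants and at -2.35 ± 0.08, -2.58 ± 0.30 and -1.48 ± 0.22 (SD, *n* = 3) in *AO*pro(mut) plants at the 3 stages. *LBD39* was at 1.46 ± 0.13, -1.18 ± 0.04 and 0.76 ± 0.08 (SD, *n* = 3) against 1.92 ± 0.20, 0.95 ± 0.24 and 1.35 ± 0.08 (SD, *n* = 3), so its mean was also lower in *AO*pro(mut) plants without N than with N, and *AO*pro(mut) plants without N lay above resupplied *AO*pro(wt) plants. *NIA1* was at 2.93 ± 0.11, 1.33 ± 0.12 and 2.11 ± 0.05 against 3.44 ± 0.21, 3.24 ± 0.14 and 3.34 ± 0.20 (SD, *n* = 3 each). Its mean was higher in *AO*pro(mut) plants at all 3 stages, and it was also called higher after resupply (1.23, adjusted p = 8.53e-07, limma). Of the nitrate reduction and assimilation genes, 5 passed the test against the stage before N starvation: *NIA1* (1.41), *NIR1* (1.30), *ASN2* (1.23), *UPM1* (AT5G40850, 1.15), which makes the siroheme of nitrite reductase, and *NIA2* (1.02). Against resupply none of the 19 was higher, with 0.67 for *NIA1*, and *GLN1;4* was lower (-1.12). *BT2* (1.94), *LBD39* (1.66), *ARR6* (2.15) and *IPT3* (1.65) passed against the stage before N starvation and also against resupply (2.50, 1.53, 2.04 and 1.39). *ARR15* (1.73) and *ARR7* (1.39) passed against the former, with 0.72 and 0.99 against resupply. *LSU1* was lower than before N starvation (-1.94), with -0.20 against resupply (adjusted p = 0.762, limma). Of the phosphate genes 4 were lower than before N starvation, *PHT1;4* (-1.32), *MGD3* (-1.27), *SPX3* (-1.55) and the phosphodiesterase gene *GDPD1* (AT3G02040, -1.08), and against resupply *PHT1;4* alone was (-1.32). None of the 16 salicylic acid genes, 25 CRK genes and 10 PR and N-hydroxypipecolic acid genes passed against the stage before N starvation. Against resupply *PBS3* (-1.03) and *UGT76B1* (-1.97) were lower.

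**Figure D4:**
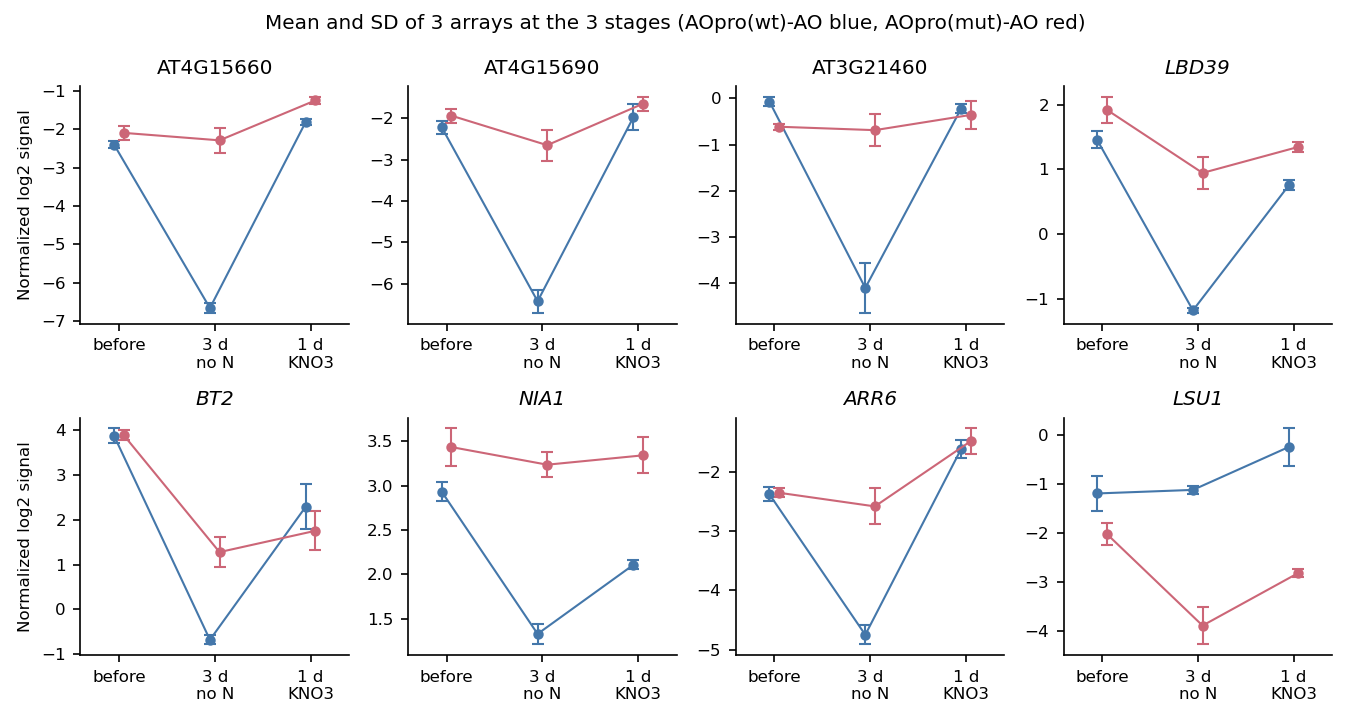
Normalized log2 signal (mean and SD of 3 arrays) of 8 genes at the 3 stages (before N starvation, without N for 3 days, and 1 day after KNO3 was given), *AO*pro(wt) plants in blue and *AO*pro(mut) plants in red. In 7 panels the lowest mean is that of *AO*pro(wt) plants without N, for example -6.66 for AT4G15660, and in the *LSU1* panel it is that of *AO*pro(mut) plants without N, at -3.89.

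The range from AT5G49520 to AT5G61610 held 1034 (4.91%) of the genes tested and 49.6% of all genes called higher. It had been found in earlier results of these data, so its counts are a description with no test. After 3 days without N 441 genes inside it (42.6%) were higher in *AO*pro(mut) plants and 6 (0.58%) were lower. The median log2 fold change was 0.93, a 1.90-fold higher signal, and 96.6% of the genes lay above 0, against 47.5% outside the range. With no minimum fold change, the brightest probe was higher for 938 of the 1034 and lower for 15 at an adjusted p of 0.05 or less (limma), against 23% and 27% of the genes outside. The shift was even, with 5th and 95th percentiles of 0.16 and 1.74 and medians of 0.85 to 0.99 in 10 successive blocks of equal size. Within the 3 slides the medians over the range were 0.92, 0.93 and 0.95. Before N starvation and after resupply they were 0.92 and 0.95, and 273 genes were called higher at all 3 stages.

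The ends of the range were sharp. The 100 tested genes before it had a median of 0.05 and the first 100 inside of 0.95, while the last 100 inside had 0.91 and the 100 after it 0.01. At the start, AT5G49500 (-0.03) and *PFD3* (AT5G49510, 0.19) lay before *WRKY48* (AT5G49520, 1.51) and AT5G49525 (0.60). At the end, *ERF104* (AT5G61600, 0.83) and AT5G61610 (1.91) were followed by *PMSR1* (AT5G61640, -0.42) and *CYCP4;2* (AT5G61650, -0.11). *AO*, at AT5G14760, lies outside the range on the same chromosome. What sets the range apart was not tested.

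**Figure D5:**
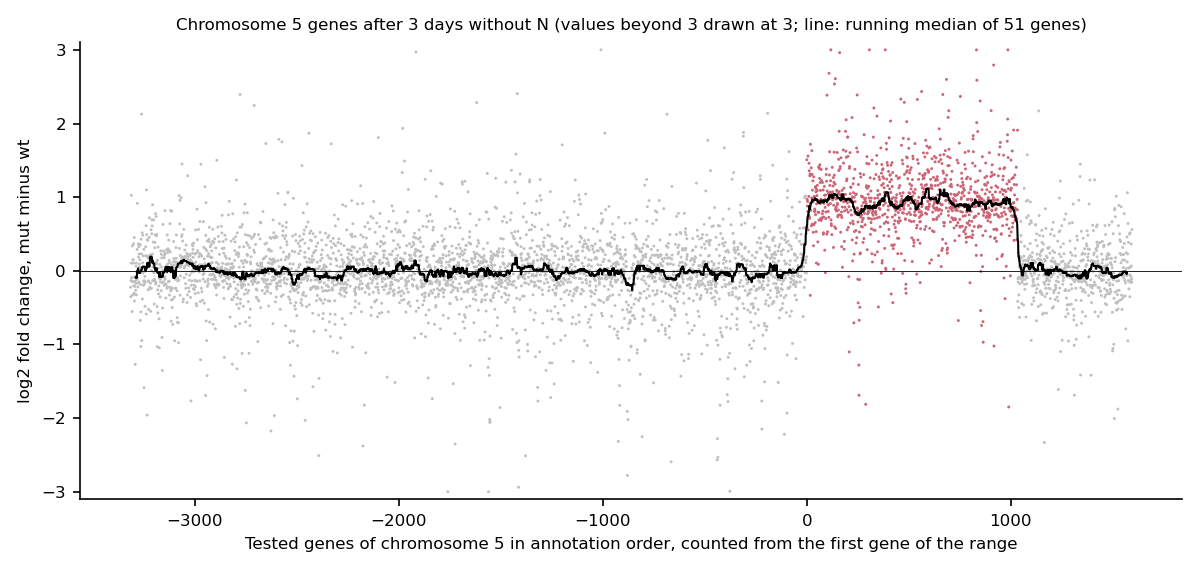
Log2 fold change after 3 days without N (vertical axis, *AO*pro(mut) minus *AO*pro(wt) plants) of the tested genes of chromosome 5 in annotation order (horizontal axis, 0 is the first gene of the range, red points are the 1034 genes inside), with a running median as a black line. The line lies near 0 on both sides and near 0.93 inside the range.

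Several members of the gene lists lie in the range, and their differences are therefore given apart. For *de novo* NAD synthesis these are *QS* (AT5G50210), at -0.13, -0.06 and -0.15 against 1.37, 1.25 and 1.28 (1.41), and *NMNAT* (AT5G55810), for nicotinate mononucleotide adenylyltransferase, with 1.02. *QS* and *NMNAT* were thus higher in *AO*pro(mut) plants, where 96.6% of the genes of the range lay above 0. Both values lie between the 5th and 95th percentiles of the range (0.16 and 1.74), whose median was 0.93. Any tie to the level of *AO* was not tested. *GLT1* (AT5G53460), for the NADH-dependent glutamate synthase, lay at 1.20, 1.15 and 1.04 against 3.09, 2.77 and 2.99 (1.82), the light-harvesting gene *LHCB3* (AT5G54270) at 5.46, 5.56 and 5.63 against 7.41, 7.01 and 7.17 (1.65), and the fumarase gene *FUM2* (AT5G50950) differed by 1.16. The cytokinin oxidase gene *CKX3* (AT5G56970, 1.39), the glucosinolate regulator gene *MYB34* (AT5G60890, 1.39), the phosphatase gene *HAI1* (AT5G59220, 1.42), the spermine synthase gene *SPMS* (AT5G53120, 1.12), *NRT2.3* (AT5G60780, 1.11) and *RD29A* (AT5G52310, 1.00) were called as well. With 1 array left out, *NMNAT* came to 0.96 (without replicate 3 of *AO*pro(mut) plants) and 0.997 (without replicate 1 of *AO*pro(wt) plants), *NRT2.3* to 0.99 (without replicate 1 of *AO*pro(wt) plants) and *RD29A* to 0.98, 0.96 and 0.94 (without replicate 1 or 3 of *AO*pro(wt) or 3 of *AO*pro(mut) plants), all just under the fold threshold. Members that were not called ranged from *HSP90.1* (AT5G52640, -0.44, and 0.26 by its second probe) over *NRT3.1* (AT5G50200, 0.09), which serves high-affinity nitrate uptake, and *TOC1* (AT5G61380, 0.65) of the clock to *MYB28* (AT5G61420, 0.93).

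Changes in the range that stood far from its median were few. *PORA* (AT5G54190), for protochlorophyllide oxidoreductase, lay at -3.77, -3.52 and -3.76 against -0.05, -0.75 and 0.32 (3.52), and the lipid transfer protein gene *LTP3* (AT5G59320) at -1.0, -0.97 and -1.85 against 1.89, 1.55 and 1.97 (3.08). AT5G51530 (2.96), AT5G60260 (2.79) and AT5G50915 (2.68) followed. *CRL* (AT5G51020), needed for plastid division, had the largest fitted difference (3.95, adjusted p = 0.0406, limma), which rested on replicate 1 of *AO*pro(wt) plants at -6.80, against 1.58 and 1.70 on the other two. Without that array the difference was 1.13, and without any 1 of the 3 *AO*pro(mut) arrays it was 3.91 to 3.99 and not called. The 6 genes lower inside the range were *AACT1* (AT5G61160, an acyltransferase gene, -1.85), AT5G53048 (-1.81), AT5G52730 (-1.69), AT5G52720 (-1.28), AT5G52070 (-1.10) and AT5G60280 (-1.02). The arrays of the lines did not overlap in any of these 6. *AACT1* was no longer called without replicate 1 of *AO*pro(wt) (-1.50, adjusted p = 0.0746, limma) or replicate 1 of *AO*pro(mut) plants (-1.57, adjusted p = 0.0698, limma), nor AT5G60280 without replicate 1 (-0.94) or 3 (-0.98) of *AO*pro(wt) or replicate 1 of *AO*pro(mut) plants (-0.87).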

How the data were processed

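The authors extracted RNA from whole shoots of 2 or 3 seedlings as a biological replicate, labelled it with Cy3, hybridized it to one-colour Agilent arrays and read the scans with Feature Extraction (version 12.1.1.1 in the submitters' processing notes). The deposited scanner files hold the processed signal, a background-corrected intensity on a linear scale, beside spot flags. A deposited table of normalized intensity, the processed signal divided by a constant for each array, was an alternative (column medians 0.153 to 0.166, linear, not centred by gene).

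The processed signal was put on the log2 scale and each array was shifted by its 75th percentile (2214 to 3111 over the arrays, and 2214 to 2931 over the 6 arrays compared). Spots with outlier marks were left out (3 to 91 on an array), and repeated spots of 50 probes were averaged. Probes were matched to genes by transcript accession through the RefSeq table of assembly TAIR10.1, used for names and gene order only, and 82.9% had a gene. Probes not well above background on all arrays of at least 1 group were left out, which bears on dim genes. Model: 6 group means on all 18 arrays, with contrasts, empirical Bayes variance and Benjamini-Hochberg adjustment (limma 3.58.1, R 4.3.3). Figures were drawn with Python 3.11.15 and matplotlib 3.10.9. On simulated data with 200 changed of 29223 probes, the line comparison recovered 198 and called 1 unchanged probe. These counts hold for the simulated data only, and the rate of recovery on the real arrays was not tested.

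Members, gene lists and the range were chosen with earlier results of these data known. Genes were named by rule: *AO*, the 15 largest increases and decreases above background on all 6 arrays with no overlap, the 6 largest given by a bound in each direction, up to 4 called members of each list, and, inside the range, the 6 largest increases, all lower genes, list members and the genes at its ends. Further list members were named after their values were seen. Alternatives were other background corrections, normalizations, filters, probes, blocks, weights and priors, and each array left out in turn. A search for promoter motifs was not run, since no promoter sequences were used here.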

Additional observations from a re-analysis of the deposited data

Results flagged for a closer look

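For some named genes the difference between the lines changed with the stage, by a test of that change itself (limma, adjusted p of 0.05 or less over all probes and a change of 1 or more in size). Values are the log2 line difference (*AO*pro(mut) minus *AO*pro(wt) plants) after 3 days without N minus that at the other stage. Both tests share the arrays of the stage without N. Where a group stood above background on none of its arrays, the value is a fitted difference against background signal, its size cannot be read and it has no rank.

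Against the stage before N starvation the difference was higher for AT4G15670 (4.99), AT4G15680 (4.62), AT4G15660 (4.07), AT3G21460 (3.96), AT3G13403 (3.78), AT4G15690 (3.49), AT4G15700 (2.94), *LTP3* (2.71), AT3G62930 (2.68), *CYP735A2* (2.62), AT3G62950 (2.44), AT3G21660 (2.29), *ARR6* (2.15), *BT2* (1.94), *GDPD6* (1.67), *LBD39* (1.66), *IPT3* (1.65), *NAS1* (1.58), *NIA1* (1.41), *ARR7* (1.39) and *LHCB2.3* (1.20). It was lower for AT3G21080 (-1.01), *MGD3* (-1.27), *PHT1;4* (-1.32), *SPX3* (-1.55), *LSU3* (-1.55), *ST2A* (-1.72), *LSU1* (-1.94), AT5G53048 (-2.39) and *NUDT24* (-6.70). In 6 of these 30 genes a group stood above background on no array: *AO*pro(wt) plants without N for AT4G15670, AT4G15680, AT3G13403, *CYP735A2* and AT3G21660, and 2 of the 4 groups for *NUDT24*. *NUDT24* was not well above background on most arrays, and before N starvation its signal was uneven in *AO*pro(mut) plants. Before N starvation *ST2A* stood above background on 1 *AO*pro(wt) array and 2 *AO*pro(mut) arrays, so its value rests in part on signal near background.

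Against the stage after resupply the difference was higher for AT4G15670 (4.57), AT4G15680 (4.37), AT4G15660 (3.82), AT3G13403 (3.76), AT3G21460 (3.55), AT4G15690 (3.45), AT4G15700 (2.64), *BT2* (2.50), AT3G62930 (2.44), AT3G62950 (2.20), AT4G36850 (2.11), *CYP735A2* (2.06), *ARR6* (2.04), *LBD39* (1.53), *NAS1* (1.45), *IPT3* (1.39), *SDI1* (1.32) and *LBD38* (1.20). It was lower for AT3G21080 (-1.02), AT5G53048 (-1.11), *GLN1;4* (-1.12), *MSRB8* (-1.18), AT5G52730 (-1.30), *PHT1;4* (-1.32), *GPT2* (-2.24), *WRKY59* (-3.48) and *MYB90* (-4.15). In 5 of these 27 genes a group stood above background on no array: *AO*pro(wt) plants without N for AT4G15670, AT4G15680, AT3G13403 and *CYP735A2*, and 3 of the 4 groups for *WRKY59*. *MYB90* stood above background on 1 of the 3 resupplied *AO*pro(wt) arrays, whose mean was -8.63 ± 1.73 (SD, *n* = 3), so its difference of 2.61 after resupply rests on signal near background. *GPT2*, above background on all arrays compared, had line differences of opposite sign at these stages, at -1.27 without N and 0.96 after resupply.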

How the results depend on the processing

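With no minimum fold change and by any probe of a gene, 4886 genes were higher and 5663 lower outside the range, and 941 and 15 inside. With normexp background correction alone, 156 were higher and 320 lower outside and 3 lower inside. With quantile normalization added the counts were 155, 393 and 3, and the median inside was 0.82. With only probes well above background on all 18 arrays, 290 were higher outside. Genes called the same way before N starvation were then 60 higher and 108 lower (normexp), 43 and 170 (normexp with quantile), and 115 higher (all 18 arrays above background). Those called the same way after resupply were 52 and 181, 60 and 172, and 126 higher. Genes whose line difference was higher or lower than before N starvation were 35 and 25 (normexp), 60 and 50 (normexp with quantile) and 208 and 178 (array weights). Against resupply they were 28 and 19 and then 48 and 58, with 191 lower under array weights and 77 lower with the slide as a block. With each of the 6 arrays left out in turn, 420 to 493 genes were higher and 599 to 777 lower outside the range, 75 to 124 were higher and 43 to 86 lower than before N starvation, and 67 to 137 were lower than after resupply. The dimmer *AO* probe gave -0.73, and over the other alternatives *AO* lay between -2.60 and -2.22. None of the 131 called genes among those named changed direction, while 5 uncalled ones near 0 did (*CYCP4;2*, AT5G49500, *SESA5*, *NRT3.1* and *UF3GT*). Against resupply more genes were lower than higher. With normexp, with the slide as a block (79 and 77) and without replicate 1 of *AO*pro(mut) plants (78 and 67) more were higher.

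Of the 131 called named genes, 36 lost their call with normexp and 31 with normexp and quantile, 3 with quantile, 8 with array weights and 3 to 15 with 1 array left out. With normexp, lost calls besides those named in the report include *ST2A* (-0.32), *SPX3* (-0.32), *CRK38* (-1.24), *NRT2.5* (-1.31), *AP3* (0.77), *SEP3* (0.85), *CKX3* (0.63) and *NRT2.3* (0.37). The cause was not tested. Counts in lists ranged, over all alternatives, from 9 to 11 higher glutaredoxins, 3 to 4 higher nitrate regulators, 8 to 12 lower CRK genes, 6 to 10 lower WRKY genes, 3 to 7 lower phosphate genes and 3 to 6 lower sulfur genes. At 3 arrays a line and for dim probes near background, a difference short of the threshold does not show equal levels.

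Deviations from the group means of arrays with the same number, which share a slide without N, correlated at -0.01, 0.09 and 0.02 without N, at 0.17, 0.12 and 0.22 before N starvation and at 0.15, -0.10 and 0.00 after resupply, so the numbers pair the arrays at the stage before N starvation only. With the replicate block 449 genes were higher and 709 lower outside the range, and none of the 131 lost its call. Chosen after seeing the data, a replicate block within each stage gave 447 and 708, with 101 genes higher and 84 lower than before N starvation and 73 and 90 against resupply, and *PDF1.2* and *MYB90* were not called. Likewise, a fit of only the 6 arrays with this block gave 429 and 687, and *CRL* and *SPX3* were not called. Quantile normalization called 409 higher and 773 lower, and the deposited normalized values gave 433 and 702.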
